A study of Mus musculus with 16 samples.

Results

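The genes studied here encode 10 surface proteins by which B cells give and receive costimulatory signals or show their activation: the receptor Cd40, the B7 family ligands Cd80, Cd86, Icosl, Cd274 and Pdcd1lg2, the activation markers Cd83, Cd69 and Cd44, and the death receptor Fas. They were chosen by name, among 55450 genes of the annotation. Open chromatin at these genes was measured by ATAC-seq, in which a transposase cuts accessible DNA. A region here is a stretch of DNA covered by overlapping or touching peaks of the deposited lists, and it is called listed in a library when the list of that library holds a peak in it. Of 16564 regions on nuclear chromosomes, 20 belonged to these genes. A promoter region of these genes has its centre within 1000 bp before or 100 bp after a start of any transcript of the gene. This held for 7 regions, and the other 13 lay elsewhere in the gene or within 10 kb of it. Over all regions, a start of any gene made a promoter region. Regions upstream of Cd80 and Cd274 that lie at starts of Adprh and Plgrkt are therefore among the 13, but among all promoter regions in the shares given beside them.

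The study deleted Brg1 (Smarca4), the ATPase of the SWI/SNF chromatin remodelling complex, with CD23-Cre, which is active in mature B cells, to ask what it does in B cell activation. The 8 ATAC-seq libraries comprised 4 labelled Brg1 flox/plus, with 1 conditional allele, and 4 labelled Brg1 flox/flox, with 2, and mice of both genotypes carried CD23Cre +/- on the C57BL/6 background. Splenic B cells, purified with CD43 microbeads, were cultured with LPS (10 µg/mL) and IL-4 (20 ng/mL), and 50000 cells went into each library. The sample labels give 72 hours of culture and the series design gives 96 hours. The libraries hold no Cre-negative group, so that every comparison is between homozygous and heterozygous deletion. Mice of all experiments were 7 to 14 weeks old. The number of mice behind the libraries is not given, so that p-values measure only the spread between libraries. The names of the lists tie replicate 1 to replicate 2, and replicate 3 to replicate 4, within each genotype, without saying whether such a pair shares a mouse. In bulk samples, fewer cells in an open state and less open chromatin per cell cannot be told apart.

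CD40 binds CD40 ligand on T cells and signals through TRAF adaptors to NF-kB. CD80 and CD86 engage CD28 and CTLA-4, ICOSL engages ICOS, and PD-L1 (Cd274) and PD-L2 (Pdcd1lg2) engage the inhibitory receptor PD-1 on T cells. LPS acts through TLR4 and NF-kB and IL-4 through STAT6, and such signals raise several of these proteins on B cells, while CD69 and CD83 appear at the surface early after activation and FAS makes activated B cells sensitive to death ligand.

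The sequences around the summits of 6 regions are shown. Promoters were taken only from genes in the RefSeq promoter table named below, which lacks Cd40 and Cd83. The 6 are the promoters of Fas and Cd274, and the regions near Icosl, Cd69 and Pdcd1lg2 whose listing differed most between genotypes. All are from the plus strand of GRCm38 (mm10), are at most 200 bases long, and leave out annotated UTRs. Capitals mark matches to 1 of 6 motifs on either strand: NF-kB, STAT (TTCNNNNGAA), AP-1 (TGACTCA), ISRE (GAAANNGAAA), octamer (ATGCAAAT) and ETS (CGGAAGT).
Icosl, 8818 bp past the gene end, chr10:78092774-78092973: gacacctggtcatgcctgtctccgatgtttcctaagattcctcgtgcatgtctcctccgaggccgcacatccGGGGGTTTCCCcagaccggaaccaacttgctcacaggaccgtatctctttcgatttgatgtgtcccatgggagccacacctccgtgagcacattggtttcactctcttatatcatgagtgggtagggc
Icosl, 3140 bp past the gene end, chr10:78087129-78087328: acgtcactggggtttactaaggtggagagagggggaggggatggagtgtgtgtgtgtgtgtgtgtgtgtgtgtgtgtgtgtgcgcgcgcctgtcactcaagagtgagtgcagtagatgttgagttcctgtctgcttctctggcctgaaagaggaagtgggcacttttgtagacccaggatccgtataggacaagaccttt
Fas promoter, chr19:34290507-34290665: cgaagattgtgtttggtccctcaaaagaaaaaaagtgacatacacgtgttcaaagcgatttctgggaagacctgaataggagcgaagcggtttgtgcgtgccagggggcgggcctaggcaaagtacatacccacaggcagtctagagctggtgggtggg
Cd274 promoter, chr19:29367309-29367454: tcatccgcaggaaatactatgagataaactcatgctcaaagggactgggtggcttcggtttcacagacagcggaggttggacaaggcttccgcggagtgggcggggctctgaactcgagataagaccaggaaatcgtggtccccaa
Cd69, 9195 bp upstream, chr6:129284494-129284693: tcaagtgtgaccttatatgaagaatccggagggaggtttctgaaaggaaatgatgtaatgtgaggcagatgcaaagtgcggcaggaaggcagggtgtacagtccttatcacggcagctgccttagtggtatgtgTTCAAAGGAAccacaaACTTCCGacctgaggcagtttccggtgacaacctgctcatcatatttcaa
Pdcd1lg2 intron, chr19:29431025-29431224: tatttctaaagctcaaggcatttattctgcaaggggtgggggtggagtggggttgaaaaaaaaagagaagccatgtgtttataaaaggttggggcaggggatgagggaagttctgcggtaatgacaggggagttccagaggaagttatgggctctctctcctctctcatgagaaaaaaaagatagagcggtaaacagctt
The capitals near Icosl are 2 overlapping NF-kB matches that begin 28 and 27 bp to the left of the summit, and 9.65% of 7174 windows of this length at regions away from promoters held an NF-kB match. The Cd69 sequence held a STAT match, found in 3.94% of those windows, and an ETS match on the minus strand, found in 3.0%. The windows at Fas, at Cd274, at Pdcd1lg2 and 3140 bp past Icosl held none of the 6 motifs as searched. The NF-kB pattern was GGG, a purine, any base, A or T, 2 pyrimidines and CC. Stretches with G or C in place of that A or T, as in the Pdcd1lg2 window, were not counted. A match is a description of the letters and does not show binding. The RefSeq promoter table matched 6 of the 10 genes, without Cd40, Cd86, Cd83 and Cd69.

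The lists differed in length and depth. They held 6267 to 14612 nuclear peaks, and Brg1 flox/plus replicate 1 had the most. The number of fragments at each summit was recovered from the deposited fold and −log10 p, and the fewest fragments of any peak in a list were between 5 and 8. Heights below are fragments divided by a size factor for each library, the median ratio over promoter regions listed in all 8. On this scale the genome background was 0.65 to 0.927 in Brg1 flox/plus and 1.26 to 1.39 in Brg1 flox/flox libraries, a mean of 0.768 ± 0.131 against 1.34 ± 0.0592 (SD, n = 4 each, two-sided exact permutation test, p = 0.0286, the smallest that 70 assignments allow). A higher background raises the number of fragments a region needs to be listed, and the part of the background in the counts of listed regions was not tested. The lists were checked against cell type markers. Of 8 B cell genes, 5 had a promoter region, among them Ms4a1 and Pax5 in 8 libraries each, while Cd79b, Cd22 and Blk had none and Cd79a was listed in 1 library. None of 8 T cell, 6 myeloid, 3 NK or 3 erythroid genes had a promoter region, and of 4 dendritic cell genes only Zbtb46 had a region, in 3 libraries of each genotype. The Smarca4 promoter was listed in 4 of 4 libraries of each genotype, and as it is not the deleted part it does not check the deletion.

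The number of libraries that listed a region was compared between genotypes, as counts without a test. Of the 13 other regions, 11 were listed in fewer Brg1 flox/flox libraries, 1 in more and 1 in as many, beside 60.6% and 24.2% of all other regions listed in fewer and in more. These shares leave out promoters of every gene, while the 13 include regions at starts of Adprh and Plgrkt, so the 2 sets are not alike. Of the 7 promoter regions, 3 were listed in fewer Brg1 flox/flox libraries (Fas, Cd86 and Cd44), 2 in more (Cd83 and Cd274) and 2 in as many (Cd40 and Cd69), where 36.7% of all promoter regions were listed in fewer and 10.9% in more. The numbers of other member regions listed were 12, 6, 3 and 4 in Brg1 flox/plus replicates 1 to 4 and 3, 1, 3 and 2 in Brg1 flox/flox replicates 1 to 4, with means of 6.25 ± 4.03 and 2.25 ± 0.957 (SD, n = 4). For promoter regions they were 7, 3, 2 and 2 against 4, 1, 4 and 2, with means of 3.5 ± 2.38 and 2.75 ± 1.5. Both pairs of groups overlapped. Brg1 flox/plus replicate 1 listed 19 of the 20 regions, and 8 of the 20 were listed in that library alone, with 8 to 25 fragments, beside 19.6% of all regions. Without it, by shares of the remaining libraries, 5 of the 13 other regions were listed less in Brg1 flox/flox and 2 more, beside 31.2% and 29.9% of all other regions. The promoter counts became 1 and 3 of 7, beside 25.8% and 20.3% of all promoter regions, with means of 2.33 and 2.75 listed per library.

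**Figure D1:**
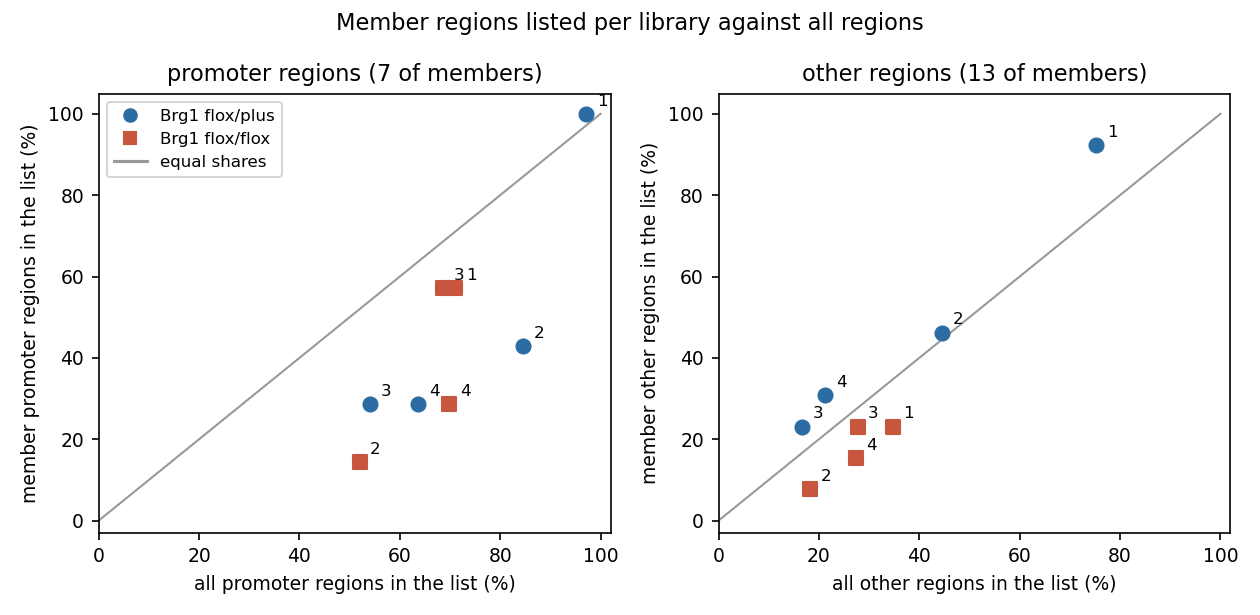
Percent of the regions of the 10 genes listed in each library (vertical axis) against the percent of all regions listed there (horizontal axis), for promoter regions (left) and other regions (right); points are libraries, numbered by replicate, and the line marks equal shares. For other regions the 4 Brg1 flox/plus libraries lie above the line, from 23.1% against 16.6% to 92.3% against 75.3%. The 4 Brg1 flox/flox libraries lie below the line, from 7.69% against 18.3% to 23.1% against 34.8%. Of the 13 other regions of the 10 genes, 8 were listed in Brg1 flox/plus libraries only, and 6 of these in replicate 1 alone. A single region makes 7.69%. Brg1 flox/plus replicates 2 (46.2% against 44.6%) and 3 and Brg1 flox/flox replicate 3 (23.1% against 27.7%) lie nearer the line than that. The other regions of the 10 genes include regions at starts of Adprh and Plgrkt, while the horizontal axis leaves out promoters of every gene.

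Promoter regions of the 10 genes were listed in a smaller share than all promoter regions in 7 of 8 libraries. The exception was Brg1 flox/plus replicate 1, which listed all 7. Only Cd40 had a region listed in all 8 libraries, where 4508 of 21924 protein-coding genes (20.6%) had such a promoter region. Cd80, Icosl and Pdcd1lg2 had no promoter region, although a region of Icosl centred further inside the gene covered its start in 1 library.

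**Figure D2:**
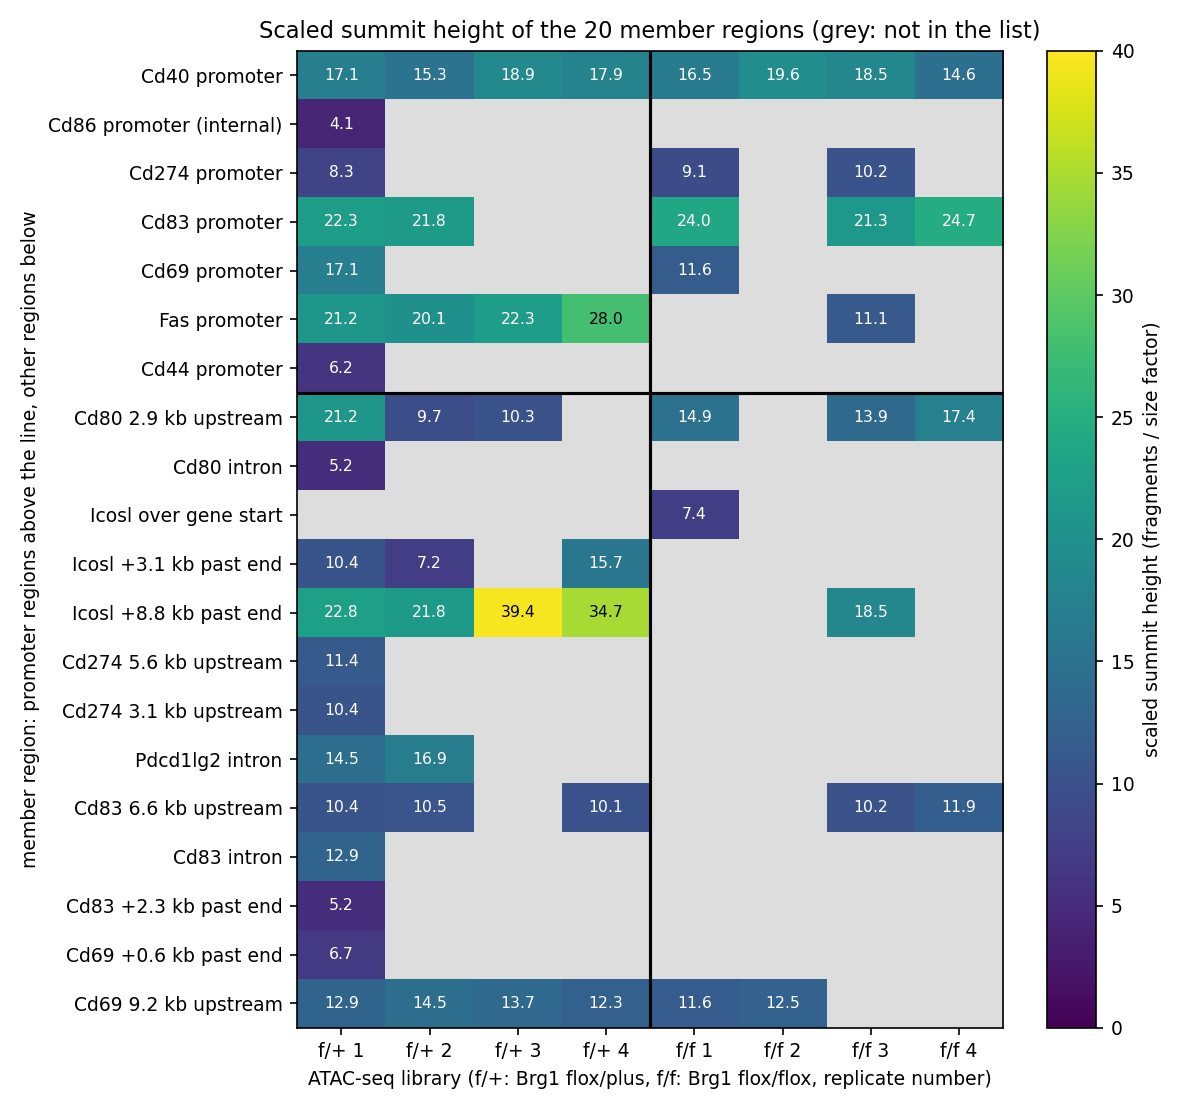
Scaled summit height (colour and printed value, fragments divided by the size factor) of the 20 regions in each of the 8 libraries, promoter regions above the horizontal line and Brg1 flox/plus libraries left of the vertical line; grey means that the list holds no peak there, which is not a height of 0. The Cd40 row is filled, between 14.6 and 19.6, and the Fas and distal Icosl rows are filled on the left side and hold 1 value each on the right.

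The Cd40 promoter was open to a like height in both genotypes. Its region (chr2:165055153-165055676) covers the gene start and is centred 212 bp upstream. The summit held 33, 19, 11 and 16 fragments in Brg1 flox/plus replicates 1 to 4, which gave heights of 17.1, 15.3, 18.9 and 17.9. The Brg1 flox/flox replicates held 20, 11, 20 and 16 fragments, or heights of 16.5, 19.6, 18.5 and 14.6. The groups overlapped throughout, with means of 17.3 ± 1.5 and 17.3 ± 2.19 (SD, n = 4 each). The log2 difference was 0.00 ± 0.21 (SE; 95% interval -0.43 to 0.43; limma over 4566 regions listed in all 8 libraries, adjusted p = 0.999), and the two-sided exact permutation test gave p = 1.0. In that fit 4.66% of regions were called lower and 7.1% higher in Brg1 flox/flox at an adjusted p under 0.05. Cd40 was the only one of the 10 genes with a region in it. When libraries were scaled by genome background instead, the median of all regions fell by 0.81 on the log2 scale, the Cd40 value became -0.83 ± 0.25 (SE), and the adjusted p by limma was 0.00176, so that relative to all regions Cd40 stayed near 0.

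The ligands of CD28 and CTLA-4 had few listed peaks of their own, and a missing peak does not show closed chromatin. Cd80 had no peak at its start. A region 2888 bp upstream (chr16:38452472-38452874) lies at the promoter and in an exon of Adprh, the neighbouring gene, and cannot be assigned to Cd80. It held 41, 12 and 6 fragments in Brg1 flox/plus replicates 1 to 3 and 18, 15 and 19 in Brg1 flox/flox replicates 1, 3 and 4, and was not listed in replicate 4 and replicate 2 of these groups. The heights were 21.2, 9.67 and 10.3 against 14.9, 13.9 and 17.4, and the groups overlapped. Fitted with regions listed in at least 3 libraries of each genotype, its log2 difference was 0.26 ± 0.29 (SE; 95% interval -0.32 to 0.84; limma over 6506 regions, adjusted p = 0.618). An intronic region of Cd80 was listed in Brg1 flox/plus replicate 1 only. The single region of Cd86, at an internal start 23165 bp from the gene start (chr16:36642798-36643033), held 8 fragments in that same library and was listed nowhere else.

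Near Icosl, open chromatin beyond the 3′ end of the gene was listed mostly in Brg1 flox/plus. The region 8818 bp past the end (chr10:78092440-78093022), which holds the NF-kB matches shown above, lies in no annotated gene. It held 44, 27, 23 and 31 fragments in Brg1 flox/plus replicates 1 to 4, or heights of 22.8, 21.8, 39.4 and 34.7 (mean 29.7 ± 8.76, SD, n = 4). In Brg1 flox/flox it was listed in replicate 3 only, with 20 fragments and a height of 18.5. For a library without a peak, an upper bound was set 3 fragments above the fewest that would have been listed at the local background of the region. The bounds were 12.4, 19.6 and 12.8 in Brg1 flox/flox replicates 1, 2 and 4, so that all 4 Brg1 flox/plus heights lay above each height or bound of Brg1 flox/flox. Replicates 1 and 2 of Brg1 flox/plus were lower than replicates 3 and 4. The second region, 3140 bp past the end (chr10:78086664-78087442), held 20, 9 and 14 fragments in Brg1 flox/plus replicates 1, 2 and 4 and was listed in no Brg1 flox/flox library. Its heights of 10.4, 7.25 and 15.7 overlapped the Brg1 flox/flox bounds of 10.7 to 17.8, and a difference in height was not detectable at this depth. A region over the gene start of Icosl (chr10:78069290-78069732), in an exon and UTR, was listed in Brg1 flox/flox replicate 1 only, with 9 fragments.

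Of the PD-1 ligands, Cd274 had a promoter region and Pdcd1lg2 had none. The Cd274 promoter region (chr19:29367187-29367555) also covers a start of Plgrkt, so that its signal is shared by both genes. It held 16 fragments in Brg1 flox/plus replicate 1 and 11 in Brg1 flox/flox replicates 1 and 3, with heights of 8.28, 9.1 and 10.2. The other 5 lists had no peak there, and no direction can be read from these values. The 2 further regions counted for Cd274 lie at starts of Plgrkt and were listed in Brg1 flox/plus replicate 1 only. An intronic region of Pdcd1lg2 (chr19:29430886-29431395) held 28 and 21 fragments in Brg1 flox/plus replicates 1 and 2, or heights of 14.5 and 16.9, and was listed in no other library of either genotype.

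**Figure D3:**
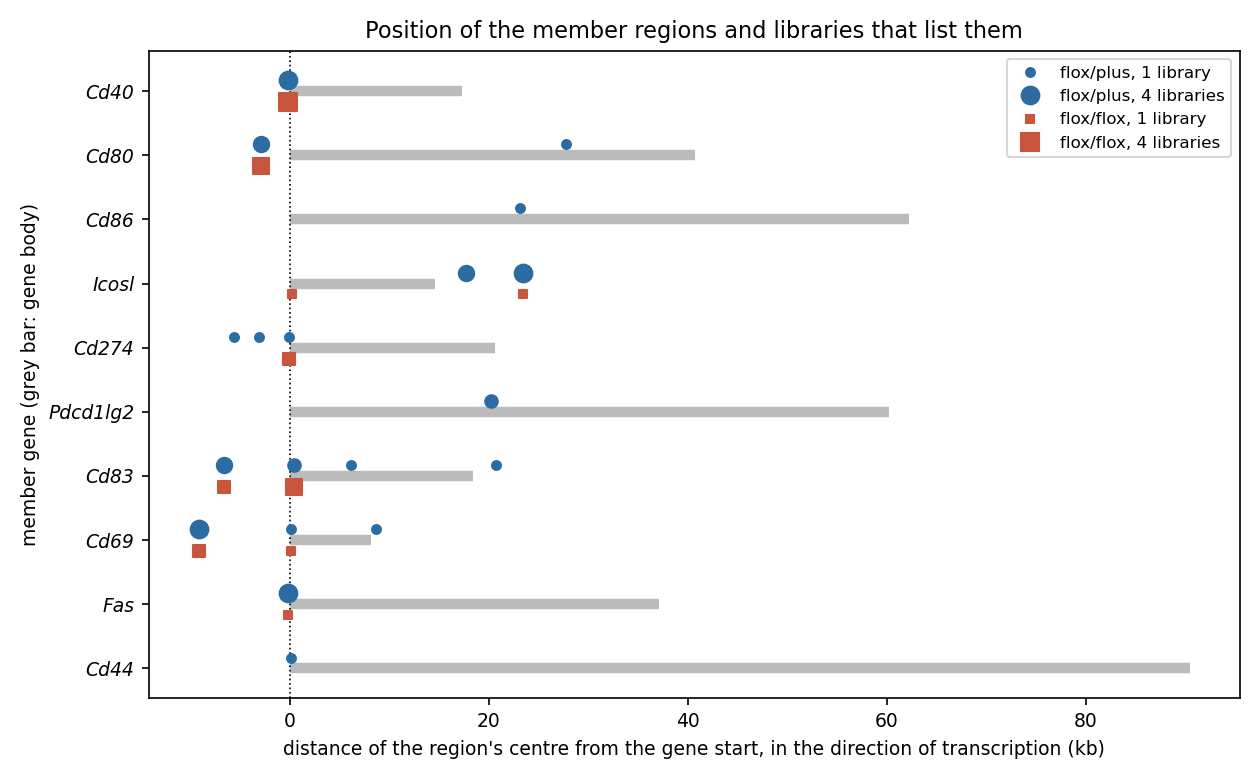
Distance of each region's centre from the start of its gene in the direction of transcription (horizontal axis, kb), with grey bars for gene bodies; circles (Brg1 flox/plus) and squares (Brg1 flox/flox) grow with the number of libraries that list the region. The Icosl regions lie 17751 and 23429 bp from the gene start, past its end, and the largest squares are at Cd40, at Cd83 and 2888 bp upstream of Cd80.

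Among the activation markers, Cd83, whose product holds MHC class II and CD86 at the cell surface, had, with Fas, the tallest promoter summits of the 10 genes, and its listing did not follow genotype. The region (chr13:43784953-43785381) is centred 392 bp inside the gene, in an exon and UTR, and 18 bp upstream of an internal start. It held 43 and 27 fragments in Brg1 flox/plus replicates 1 and 2 and 29, 23 and 27 in Brg1 flox/flox replicates 1, 3 and 4. The heights were 22.3 and 21.8 against 24.0, 21.3 and 24.7, and these overlapped. Brg1 flox/plus replicates 3 and 4 had no peak there, with bounds of 17.1 and 12.3, below the heights of replicates 1 and 2 of the same genotype. The spread within Brg1 flox/plus was thus larger than the gap between the listed libraries of the 2 genotypes. Brg1 flox/flox replicate 2 also had no peak at this region, with a bound of 19.6, below the listed Brg1 flox/flox heights of 21.3 to 24.7. A region 6627 bp upstream of Cd83 (chr13:43777688-43778608) held 20, 13 and 9 fragments in Brg1 flox/plus replicates 1, 2 and 4 and 11 and 13 in Brg1 flox/flox replicates 3 and 4. Its heights, 10.4, 10.5 and 10.1 against 10.2 and 11.9, did not separate the genotypes.

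Cd69, a lectin that retains activated lymphocytes by lowering the S1P receptor at the surface, had its most often listed region 9195 bp upstream (chr6:129284275-129284987), outside annotated genes. This region, shown above with its STAT and ETS matches, held 25, 18, 8 and 11 fragments in Brg1 flox/plus replicates 1 to 4, or heights of 12.9, 14.5, 13.7 and 12.3 (mean 13.4 ± 0.951, SD, n = 4). In Brg1 flox/flox it held 14 and 7 fragments in replicates 1 and 2, or heights of 11.6 and 12.5, and was not listed in replicates 3 and 4, whose bounds were 10.2 and 10.1. The groups met at 12.3 and 12.5, so the genotypes did not separate. The Cd69 promoter (chr6:129274789-129275805) held 33 fragments in Brg1 flox/plus replicate 1 and 14 in Brg1 flox/flox replicate 1, or heights of 17.1 and 11.6, and was listed in no other library. The promoter region of Cd44 (chr2:102901418-102901639), the hyaluronan receptor, held 12 fragments in Brg1 flox/plus replicate 1 and was listed in no other library.

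The Fas promoter was the member promoter whose listing differed most by genotype. Its region (chr19:34290179-34290728) covers the gene start and is centred 212 bp upstream. It held 41, 25, 13 and 25 fragments in Brg1 flox/plus replicates 1 to 4, or heights of 21.2, 20.1, 22.3 and 28.0 (mean 22.9 ± 3.49, SD, n = 4). In Brg1 flox/flox it was listed in replicate 3 only, with 12 fragments and a height of 11.1. The bounds of replicates 1, 2 and 4 were 12.4, 19.6 and 12.8. All Brg1 flox/plus heights lay above these values, with the smallest gap between 20.1 in Brg1 flox/plus replicate 2 and the bound of 19.6 in Brg1 flox/flox replicate 2, the shallowest list. When each list was limited to its best 6267 peaks, the Fas promoter was listed in 4 Brg1 flox/plus and 0 Brg1 flox/flox libraries and the distal Icosl region in 4 and 1. The Cd40 promoter was listed in 2 and 2, the Cd83 promoter in 2 and 3, and the regions upstream of Cd80 and Cd69 in 2 and 2 and in 1 and 1. The nearer Icosl region and the Pdcd1lg2 region were listed in 1 and 0 each. These counts come from the same lists, and the share of all regions that differ at this length is not given. They therefore do not show whether Fas or Icosl differed more than other regions. The part of the genome background was not tested.

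Regions with every Brg1 flox/plus height above all Brg1 flox/flox heights and bounds were common across the genome, at 8.75% of 5507 regions listed in all 4 Brg1 flox/plus libraries. Of the 4 member regions among them (Cd40, Fas, the distal Icosl region and the upstream Cd69 region), Fas and Icosl had this order. The opposite order held for 8.88% of 5463 regions listed in all 4 Brg1 flox/flox libraries and for no member region. This comparison was chosen after the data were seen, carries no p, and with 4 member regions says nothing of the genes as a group. With bounds of 6 in place of 3 fragments above the floor, neither Fas nor Icosl kept the order.

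**Figure D4:**
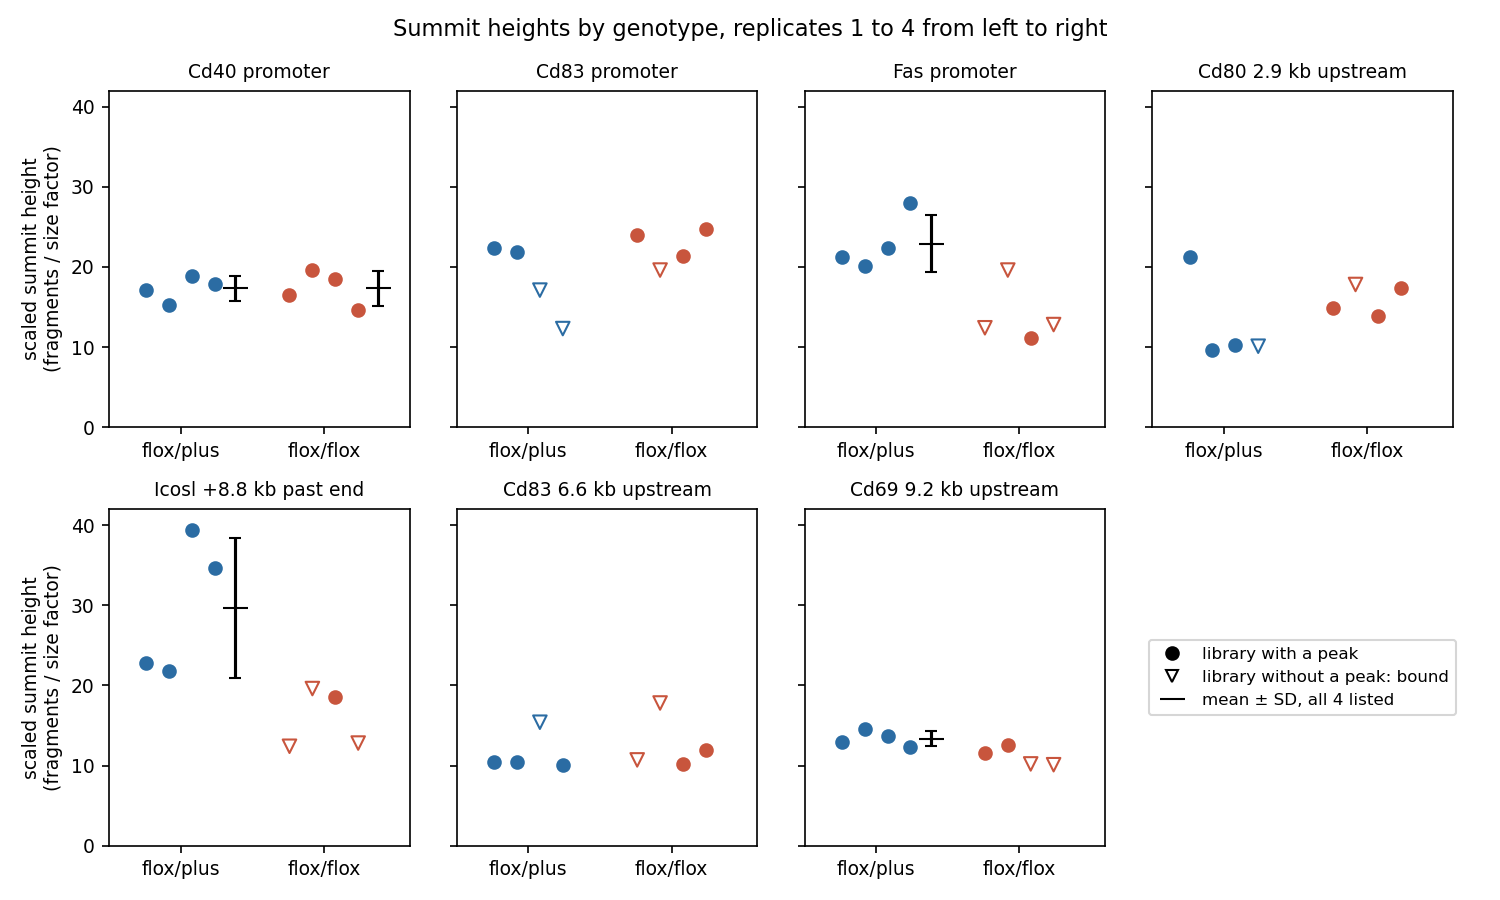
Scaled summit height (vertical axis, fragments divided by the size factor) in replicates 1 to 4 of each genotype, for the promoters of Cd40, Cd83 and Fas and for other regions listed in at least 5 libraries; filled points are libraries with a peak, open triangles are bounds of libraries without a peak, and bars give the mean ± SD where all 4 libraries were listed. The Fas points of Brg1 flox/plus (20.1 to 28.0) and those of the distal Icosl region (21.8 to 39.4) lie above all points and triangles of Brg1 flox/flox, while the Cd40 points overlap.

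Most promoter regions of these genes were poor in CpG, with Cd83 and Cd274 (0.716) the exceptions. The observed over expected CpG ratio of the 7 regions ran from 0.181 at Cd86 to 0.923 at Cd83 with a median of 0.381, beside a median of 0.817 over 9328 promoter regions. It was below 0.6 in 5 of the 7: Cd86, Cd40 and Cd69 (0.301 each), Fas (0.381) and Cd44 (0.452). These are ratios of whole regions. The shorter Fas sequence shown above had a ratio of 0.7, beside a median of 0.869 for promoter windows of its length. Over all genes, 1291 promoter regions lay below 0.6, and 9.53% of them were listed in all 8 libraries and 39.9% in a single library, beside 42.7% and 13.4% of all promoter regions. Cd40 was among these 9.53%, and Cd83, the richest in CpG, was listed in 5. The part of CpG content in the listing of the 10 genes was not tested.

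**Figure D5:**
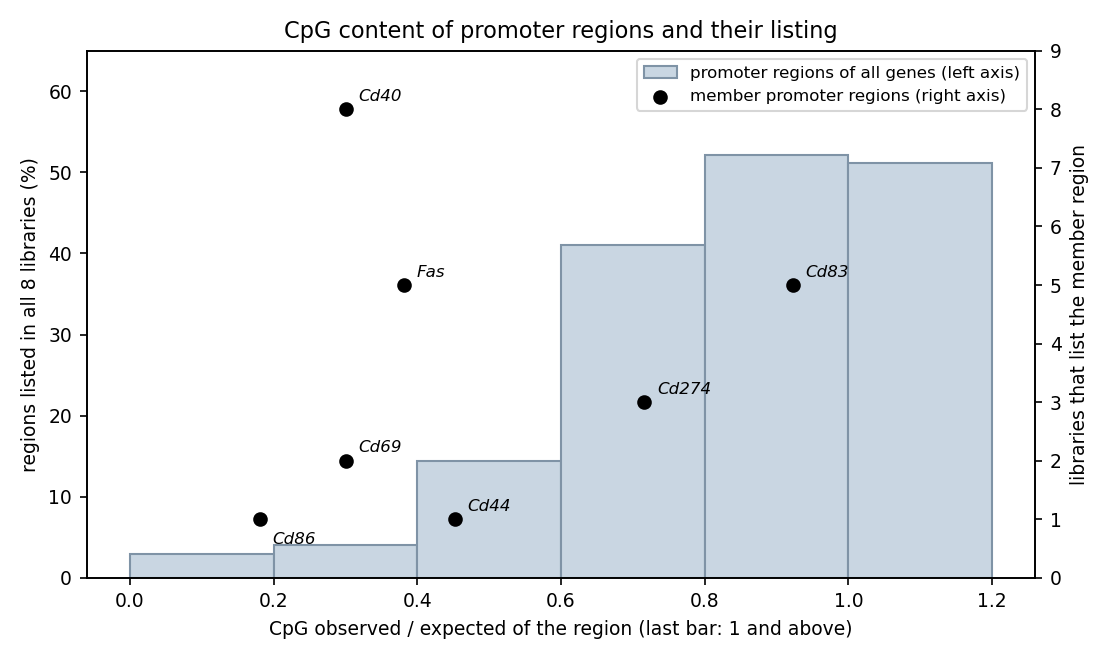
Percent of all promoter regions listed in all 8 libraries (bars, left axis) by CpG observed over expected ratio of the region (horizontal axis), with the member promoter regions as points at the number of libraries that list them (right axis). The bars rise from 2.88% below a ratio of 0.2 to 52.1% between 0.8 and 1, and Cd40 stands at 8 libraries with a ratio of 0.301.

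Other genes that act with these proteins were counted by their promoter regions, which 7 of the 10 genes above had. Of 10 genes of CD40 signal transduction, 9 had a promoter region and 7 were listed in all 8 libraries: the adaptors Traf2, Traf3 and Traf5, the kinase Map3k14, the ubiquitin ligases Birc2 and Birc3, and the NF-kB inhibitor Tnfaip3. Traf6 was listed in 3 Brg1 flox/plus and 2 Brg1 flox/flox libraries and Tank in 2 and 0. Of 9 further B7 family and TNF ligands, 5 had a region, with Cd24a in all 8 libraries, Icam1 in 2 of each genotype, and Cd276, Vsir and Tnfsf9 in 1 Brg1 flox/plus library each. Of 5 genes of Fas signal transduction, 3 had a region: the kinase Ripk1 in 8 libraries, the caspase inhibitor Cflar in 3 and 3, and the death agonist Bid in 3 and 4. Of 8 other activation markers, 6 had a region and 3 were listed in fewer and 0 in more Brg1 flox/flox libraries: Il2ra in 2 and 0, Tnfrsf9 in 4 and 1, and Nr4a1 in 4 and 3. Over all promoter regions 36.7% were listed in fewer. In total 23 of these 32 genes had a promoter region, beside 43.1% of protein-coding genes. Of the 23, 8 were listed in fewer and 1 in more Brg1 flox/flox libraries, beside that 36.7% and 10.9% in more over all promoter regions. In the fit of heights, 0 of the 11 regions of these genes passed in either direction by limma (2, Birc2 and Egr1, had an unadjusted p under 0.05), and their median log2 difference was 0.05, beside 0.02 over all regions. The closest was Birc2, with a log2 difference of 0.38 ± 0.14 (SE; limma, adjusted p = 0.0759).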

How the data were processed

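ATAC-seq reads were aligned by the authors with Bowtie2 (mm10), MACS2 was run on each library alone, and versions, options, duplicate handling and any transposase shift are not given in the sources used here. The deposited lists give for each peak a fold (a ratio, summit over local background) and the −log10 of p and of q as MACS2 wrote them (lowest −log10 q 1.31). The deposited score of MACS2 was not used. Fragments at the summit were solved from fold and p to within 0.002 of the −log10 p, for at least 99.7% of peaks. Peaks outside the mitochondrial chromosome that overlapped or touched were joined and placed by their centre on GENCODE starts of GRCm38.

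The 10 genes, their rule and the gene lists were chosen with earlier results of these data known. Libraries were grouped by their labels. Heights were compared with limma 3.58.1 with trend (R 4.3.3) and Benjamini-Hochberg adjustment over 4566 regions, at a threshold of 0.05, after a check on simulated data. Single values were compared with exact permutation tests that ran through all 70 assignments. SciPy 1.17.1 gave the Poisson probabilities from which fragments were solved. The smallest p of 4 against 4 libraries is 0.0286. Values per library are given for promoter regions and for other regions listed in at least 4 libraries or with a sequence shown. Alternatives to thresholds, joining, windows, scaling and libraries were run. Replicate numbers were not used as pairs. The precision is set by the few fragments per summit and by 4 libraries per genotype. A further B cell marker gene is not reported here. The 8 RNA-seq libraries of the series were not analysed here.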

Additional observations from a re-analysis of the deposited data

Results flagged for a closer look

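Brg1 flox/flox replicate 2 listed 52.0% of all promoter regions, where the other 3 libraries of that genotype listed 68.7% to 71.1%. The gap took 0.874 of the range of the group, above the critical value of Dixon's test for 4 values. Chance gives such a gap in about 1 of 20 groups, and 17 groups of values were checked. This library listed 1 of 7 promoter regions and 1 of 13 other regions of the 10 genes. Without it, the difference in promoter regions listed went from -0.75 to -0.167 regions per library. Fas and the distal Icosl region kept their order, joined by the upstream Cd69 region. The share over all regions with this order rose as well, from 8.75% to 13.2% of 5507 regions.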

How the results depend on the processing

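Every alternative kept fewer other member regions in Brg1 flox/flox, by 1.25 (of 5 regions, same number of peaks per library) to 6.25 (of 27, within 50 kb) per library. For promoter regions 18 of 19 kept fewer, the exception being without Brg1 flox/plus replicate 1 (0.417 more). The alternatives reuse the same lists, in which 6 of the 13 other member regions were listed in Brg1 flox/plus replicate 1 alone. For most of them the share over all regions is not given. They therefore do not show whether the member regions differed more than all regions did. Over all other regions, the share listed in the main setting was 39.5 ± 26.9% in Brg1 flox/plus and 27.0 ± 6.76% in Brg1 flox/flox. Over all promoter regions it was 74.9 ± 19.6% and 65.4 ± 9.0% (SD, n = 4 each). Two-sided exact permutation tests gave p = 0.486 and p = 0.457. Brg1 flox/plus replicate 1 listed 75.3% of other and 97.2% of promoter regions. Replicates 2 to 4 of that genotype listed 16.6% to 44.6% and 54.1% to 84.6%. With 1 library left out, the differences ran from -1.25 to 0.417 for promoter regions and from -5.08 to -2.08 for other regions. The fit called 213 regions lower and 324 higher in Brg1 flox/flox. With the replicate number as a block it called 196 and 284. Same-numbered libraries of the 2 genotypes did not deviate together (correlations from -0.0609 to -0.00843). Without known pairs to compare with, this cannot show whether the numbers mark pairs, which the labels do not say. Calls were 120 and 199 on means of replicates 1 and 2 and of 3 and 4, 4153 and 16 with background scaling, 100 and 173 with the deposited fold, 35 and 23 with ranks by q, 113 and 193 with a −log10 q of at least 10 everywhere, and 384 lower with at least 3 libraries per genotype. With 1 library left out they ran from 117 to 230 lower and from 185 to 369 higher, with 117 and 213 without Brg1 flox/plus replicate 2 and 119 and 185 without Brg1 flox/flox replicate 1. The Cd40 difference was -0.83 with background scaling (limma, adjusted p = 0.00176), 0.01 with the deposited fold, and from -0.06 to 0.08 with 1 library left out, and passed nowhere else. The comparison with bounds, chosen after seeing the data, gave 482 regions higher in Brg1 flox/plus and 485 higher in Brg1 flox/flox. With background scaling these were 4079 and 16, with 4 member regions in place of 2, and with bounds of 6 fragments 0 member regions kept the order. With 1 library left out they ran from 585 to 817 and from 578 to 710, with 817 without Brg1 flox/plus replicate 3 and 729 without Brg1 flox/flox replicate 2 in the first. The causes were not tested. Depth limits the result: in the shallowest library, Brg1 flox/flox replicate 2, the bounds of unlisted member regions reached 23.2.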
